A study of Mus musculus with 9 samples.

Results

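The genes described here encode the matrix metalloproteinases (Mmp), the ADAMTS proteases with their protease-like relatives (Adamts and Adamtsl), and the tissue inhibitors of metalloproteinases (Timp) of the atherosclerotic mouse aorta. Every symbol of the array annotation made of one of these 4 names and a number, with any letter after it, was taken, and each gene was read at its brightest probe set that names only that gene. This gave 42 of 18193 measured genes: 18 Mmp, 15 Adamts, 5 Adamtsl and 4 Timp genes. All mice were female APOE-/- animals on a C57BL/6 background, labelled as 8 weeks old, which were fed 0.2% cholesterol and 10% coconut oil for 30 weeks so that lesions formed. A single injection into the tail vein followed, and tissue was taken 10 days after it. The HDAd-gE3 group received a helper-dependent adenovirus carrying human apolipoprotein E3, the HDAd-0 group the empty vector, and the PBS group phosphate-buffered saline. Each array held RNA pooled from the aortas of 3 mice, from sinus to arch, so differences between single mice were not measured. Each group had 3 arrays, which the labels number 1, 3 and 4 for PBS, 3, 4 and 5 for HDAd-0, and 2, 3 and 4 for HDAd-gE3.

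Matrix metalloproteinases are zinc proteases that are made as inactive precursors, become active when a propeptide is removed, and together cut most proteins of the extracellular matrix. ADAMTS proteases are secreted relatives that bind matrix, and several of them cut the large proteoglycans versican and aggrecan, while ADAMTSL proteins have no protease domain. TIMPs block the active site of these enzymes. In atherosclerotic vessels macrophages and smooth muscle cells make several of them, and they are known for thinning the fibrous cap and for remodelling the elastic layers of the wall.

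A group of 9 Mmp genes lies in 1 cluster on mouse chromosome 9, in the order Mmp13, Mmp12, Mmp1b, Mmp3, Mmp1a, Mmp10, Mmp8, Mmp20 and Mmp7 (RefSeq, GRCm38.p6). Promoters were searched on both strands in a window from 250 bases before the transcription start to 50 bases after it, and the RefSeq promoter table used here held 27 of the 42 genes. The AP-1 motif TGANTCA, the letters bound by Fos and Jun proteins, occurred in 8 of these 27 genes, against 8.97% of the 27025 genes in the whole table (8 of 30 promoters, against 7.81% of 32851). All 8 belonged to the cluster, and only Mmp8 among its 9 genes had no match in this window. Of the Mmp genes outside the cluster, Mmp2, Mmp9, Mmp16, Mmp17 and Mmp19 had no promoter in the table and were not searched. The 8 matches are shown because they are a feature that these genes share and that the choice of genes did not use. Each line gives 27 bases along the strand of the gene, in build GRCm38.p6, with the motif in capitals.
Mmp13 (chr9:7272469-7272495, plus strand): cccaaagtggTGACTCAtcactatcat
Mmp12 (chr9:7347320-7347346, plus strand): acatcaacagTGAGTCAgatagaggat
Mmp1b (chr9:7388103-7388129, minus strand): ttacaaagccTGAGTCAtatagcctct
Mmp3 (chr9:7445766-7445792, plus strand): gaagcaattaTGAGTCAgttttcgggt
Mmp1a (chr9:7464058-7464084, plus strand): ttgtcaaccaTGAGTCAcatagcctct
Mmp10 (chr9:7502269-7502295, plus strand): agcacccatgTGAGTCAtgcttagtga
Mmp20 (chr9:7628126-7628152, plus strand): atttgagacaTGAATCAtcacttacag
Mmp7 (chr9:7692017-7692043, plus strand): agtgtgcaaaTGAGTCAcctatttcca
The matches began between 35 bases (Mmp13) and 95 bases (Mmp20) upstream of the annotated start. TGAGTCA and TGACTCA are the same site read on opposite strands, and the Mmp20 match carries a different middle base.

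Mmp13 had the largest difference of all 42 genes in the results that follow, and its upstream region is therefore given whole. The 250 bases before the start on the plus strand (chr9:7272264-7272513, GRCm38.p6) hold an AP-1 match 35 bases upstream, a RUNX motif (TGTGGT, here on the opposite strand) 118 bases upstream and a TATA motif (TATAAA) 16 bases upstream, all in capitals.
Mmp13 upstream region: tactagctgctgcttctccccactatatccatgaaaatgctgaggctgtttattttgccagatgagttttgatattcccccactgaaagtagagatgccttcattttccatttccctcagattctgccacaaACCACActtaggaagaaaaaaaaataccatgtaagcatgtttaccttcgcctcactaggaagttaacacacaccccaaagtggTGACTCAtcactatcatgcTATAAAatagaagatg
RUNX, TATA, GC box (GGGCGG) and E-box (CACGTG) motifs occurred in 5, 11, 16 and 1 of the 27 genes, and in 18.9%, 15.7%, 38.2% and 8.09% of all genes with a promoter in the table. No binding was measured here, so the matches describe letters only.

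The values are deposited log2 signals of Affymetrix arrays, on which a difference of 1 is a doubling. They ran from 1.98 to 14.7, array medians lay between 6.67 and 6.77, and the number of arrays limits the precision of every value. Smooth muscle markers, which define the tissue, averaged 12.42 to 12.66 on all arrays, and cardiac muscle markers averaged 12.21 to 13.65, so RNA of heart muscle was measured in all pools. The log2 signal of 3′ less that of 5′ control probe sets, which reflects RNA integrity, averaged 0.866 ± 0.071 (SD, n = 3) in PBS, 0.933 ± 0.16 in HDAd-0 and 0.735 ± 0.069 in HDAd-gE3. Within HDAd-0, replicate 4 was the highest array for 24 of the 42 genes (34.7% of all genes) and replicate 5 the lowest for 24 (36.3% of all genes). The genes of the family also varied more between arrays of a group than the typical gene: the median residual SD was 0.164 for the 42 genes and 0.12 for all genes. In pooled whole aorta, fewer cells of a type and less RNA per cell cannot be told apart.

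None of the 42 genes passed the test in any comparison. The test was limma over all 9 arrays, with p adjusted by the Benjamini-Hochberg method over all 18193 genes and a threshold of 0.05. In HDAd-gE3 against HDAd-0, which asks what the apolipoprotein E3 gene adds to the vector, 0.0055% of all genes passed, in HDAd-0 against PBS 0.066%, and in HDAd-gE3 against PBS 0.126%. The smallest limma adjusted p among the 42 genes were 0.196, 0.127 and 0.17 in these comparisons, which share arrays and are not independent. An exact permutation test of 3 arrays against 3 cannot give a p under 0.1, so such a test could not reach the threshold for any gene.

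At an unadjusted limma p under 0.05, 2 genes were higher and 2 lower in HDAd-gE3 than in HDAd-0, where 3.46% of all genes were higher and 9.4% lower. In HDAd-0 against PBS 1 gene was higher and 4 lower, against 8.5% and 4.39% of all genes. In HDAd-gE3 against PBS 3 genes were higher and 3 lower, against 5.94% and 7.27% of all genes. The count of lower genes in HDAd-0 against PBS, 4 of 42, was the one that lay furthest above its background. All 3 arrays of HDAd-gE3 lay above all 3 arrays of HDAd-0 for 2 genes (Adamts8 and Adamts9) and below them for 3 (Mmp12, Adamts12 and Adamtsl2), where 4.25% and 12% of all genes did so. HDAd-0 lay wholly above PBS for 2 genes (Mmp12 and Adamts12) and wholly below for 4 (Mmp19, Adamts4, Adamts9 and Timp4), against 11.8% and 7% of all genes. HDAd-gE3 lay wholly above PBS for 2 genes (Mmp9 and Adamts8) and wholly below for 6 (Mmp2, Mmp3, Mmp13, Adamts20, Adamtsl2 and Timp4), against 10.8% and 13.2% of all genes. These shares are near the background in most cases and were not read as a result about the family.

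The family as a whole did not lie to one side. The median log2 difference of the 42 genes was -0.01 in HDAd-gE3 against HDAd-0, 0.01 in HDAd-0 against PBS and 0.01 in HDAd-gE3 against PBS, beside -0.04, 0.02 and -0.02 for all genes. Differences within 0.25 in either direction made up 37, 32 and 35 of the 42. The genes with larger differences were few, and the plot of all 42 differences shows them by name.

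**Figure D1:**
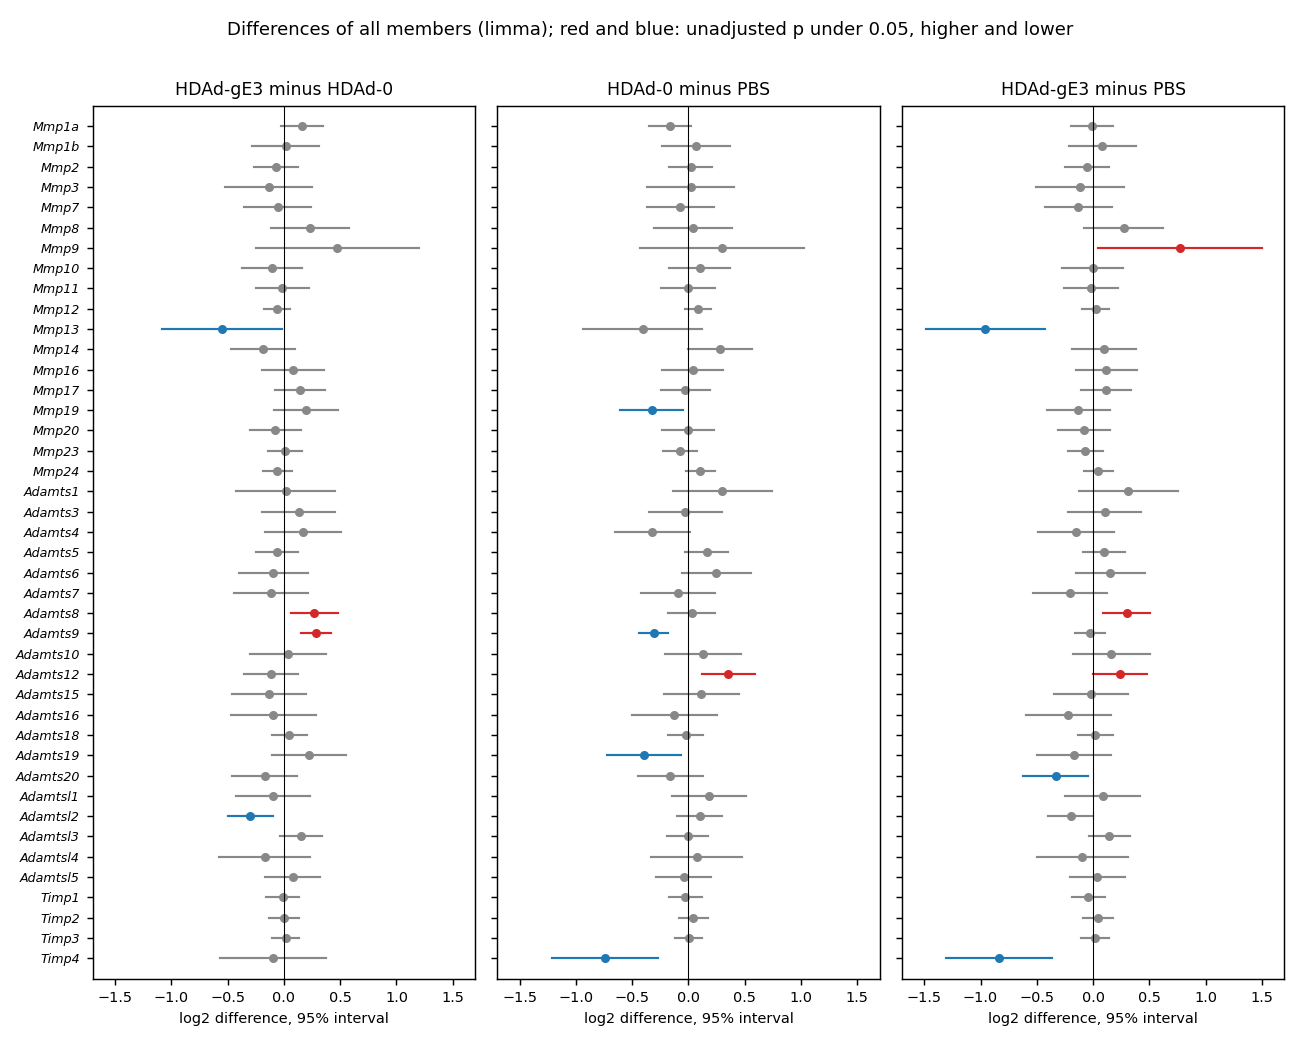
Log2 difference (x axis) of each of the 42 genes (y axis) in the 3 comparisons, as the limma estimate with its 95% interval; red marks higher and blue lower at an unadjusted p under 0.05. Most estimates lie close to 0, and Mmp13 and Timp4 (lower) and Mmp9 (higher) lie furthest from it.

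Mmp13 encodes collagenase 3, the main enzyme of mice that cuts fibrillar collagen. Its log2 signal was 10.17, 10.01 and 10.17 on the PBS arrays, 9.61, 10.31 and 9.20 on the HDAd-0 arrays, and 9.07, 9.25 and 9.16 on the HDAd-gE3 arrays, each in the order of the replicate numbers. The HDAd-gE3 arrays were all lower than the PBS arrays, while the HDAd-0 arrays were spread over the range of both, with replicate 4 above every PBS array. The mean was 9.16 ± 0.093 (SD, n = 3) with HDAd-gE3 and 10.12 ± 0.092 with PBS. The difference was -0.96 ± 0.23 (SE; 95% interval -1.49 to -0.43), a 1.94-fold lower signal with a limma adjusted p of 0.17. Against HDAd-0 the difference was -0.55 ± 0.23 (limma adjusted p = 0.376), and for HDAd-0 against PBS it was -0.41 ± 0.23 (adjusted p = 0.495).

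Whether Mmp13 passed depended on how the HDAd-0 arrays entered the fit. With only the arrays of HDAd-gE3 and PBS in the fit, the same difference of -0.96 had an SE of 0.075 and a limma adjusted p of 0.0381. It also passed without HDAd-0 replicate 4 (adjusted p = 0.0478) and with arrays weighted by their quality (-0.89, adjusted p = 0.0184), a fit that called 804 genes in all. Over 21 alternative settings the difference of HDAd-gE3 from PBS ran from -1.01 to -0.66, with limma adjusted p from 0.0184 to 0.434. Leaving out HDAd-0 replicate 4 brought the difference of HDAd-gE3 from HDAd-0 to -0.25 and leaving out replicate 5 to -0.80, and it was -0.10 when the 3′ less 5′ control difference was a covariate. HDAd-0 differed from PBS by -0.71 without its replicate 4 and by -0.16 without its replicate 5. Chondrocytes and bone cells also make Mmp13, and cartilage and bone markers averaged 10.19 to 10.56 in PBS, 9.29 to 10.20 in HDAd-0 and 9.95 to 10.40 in HDAd-gE3. Of these 8 markers 3 had a higher and 5 a lower mean in HDAd-gE3 than in PBS, 2 of them lower at an unadjusted p under 0.05. Against HDAd-0, 6 had a higher and 2 a lower mean in HDAd-gE3, 3 of them higher at that threshold. All 8 had a lower mean in HDAd-0 than in PBS, 2 of them at that threshold. By array these averages were 10.26, 10.19 and 10.56 in PBS, 9.99, 9.29 and 10.20 in HDAd-0, and 9.95, 10.40 and 10.08 in HDAd-gE3. They ranked the arrays as Mmp13 did within PBS and within HDAd-gE3, and in the reverse order within HDAd-0. Macrophage markers averaged 11.32 to 11.40 in PBS, 11.42 to 11.55 in HDAd-0 and 11.24 to 11.29 in HDAd-gE3, with 6 of 8 lower in mean in HDAd-gE3 than in PBS, 3 of them at an unadjusted p under 0.05. All 8 were lower in mean in HDAd-gE3 than in HDAd-0, 5 at that threshold. The part of either cell type in the Mmp13 difference was not tested.

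None of the other 8 genes of the chromosome 9 cluster had a difference as large as that of Mmp13. They lay between -0.13 and 0.27 in HDAd-gE3 against PBS, between -0.13 and 0.23 against HDAd-0, and between -0.17 and 0.10 in HDAd-0 against PBS. None of these 8 had an unadjusted limma p under 0.05 in any comparison, and 7 of them carry the AP-1 match shown above. Mmp1a, Mmp1b, Mmp7 and Mmp20 had mean signals of 2.90, 3.04, 4.12 and 2.81, near the lowest signal of the arrays, 1.98, and at that level a difference as large as that of Mmp13 might not be seen. Mmp8, the neutrophil collagenase and the one without a match, read 8.21, 7.97 and 7.90 in PBS, 8.34, 7.75 and 8.10 in HDAd-0, and 8.15, 8.45 and 8.29 in HDAd-gE3. Its groups overlapped in every comparison, and its difference between HDAd-gE3 and PBS was 0.27 ± 0.15 (SE; limma adjusted p = 0.484).

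Mmp9, gelatinase B, cuts denatured collagen and basement membrane and is stored in neutrophil granules as well as made by macrophages. It read 8.69, 8.44 and 8.39 in PBS, 9.09, 9.37 and 7.94 in HDAd-0, and 9.06, 9.41 and 9.36 in HDAd-gE3. Every HDAd-gE3 array was above every PBS array, and HDAd-0 held both values as high as those of HDAd-gE3 and, in replicate 5, the lowest value of all 9 arrays. The difference between HDAd-gE3 and PBS was 0.77 ± 0.32 (SE), 1.71-fold, with a limma adjusted p of 0.352. Against HDAd-0 it was 0.48 ± 0.32 (adjusted p = 0.543). With HDAd-0 replicate 5 and HDAd-gE3 replicate 4 left out the latter was 0.003, and when the 3′ less 5′ control difference was a covariate it was 1.07 ± 0.32 (adjusted p = 0.341). The difference from PBS was 0.73 without the same 2 arrays. HDAd-0 differed from PBS by 0.30 ± 0.32 (adjusted p = 0.728). The second, dimmer Mmp9 probe set had differences of 0.81 from PBS and of 0.54 between HDAd-0 and PBS.

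The average of the neutrophil markers was higher on every HDAd-gE3 array than on any other array. The 9 markers averaged 8.79 to 9.06 in PBS, 8.61 to 9.17 in HDAd-0 and 9.58 to 11.14 in HDAd-gE3, and 6 of 9 were higher in HDAd-gE3 than in PBS at an unadjusted p under 0.05. In that comparison 8 of the 9 had a higher mean, and Lcn2 went the other way, by -0.15. The dimmest of them, Elane, averaged 4.78 over all arrays. By array they averaged 9.06, 8.98 and 8.79 in PBS, 9.17, 8.84 and 8.61 in HDAd-0, and 9.58, 9.67 and 11.14 in HDAd-gE3. The array lowest in Mmp9 was also lowest in these markers within each group, and the array highest in Mmp9 was highest in them within PBS only. The part of neutrophils in the Mmp9 difference was not tested.

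Mmp2, gelatinase A, is made by smooth muscle cells and fibroblasts and is activated at the cell surface by Mmp14, a membrane-anchored collagenase. Mmp2 read 12.48, 12.50 and 12.57 in PBS, 12.49, 12.73 and 12.40 in HDAd-0, and 12.47, 12.48 and 12.45 in HDAd-gE3. HDAd-gE3 lay just below PBS on all arrays, by -0.05 ± 0.085 (SE) in mean, which is smaller than its error (limma adjusted p = 0.835). Mmp14 read 9.93, 10.08 and 10.10 in PBS, 10.09, 10.61 and 10.25 in HDAd-0, and 10.07, 10.20 and 10.12 in HDAd-gE3. HDAd-0 replicate 4 stood above the rest, and the difference of HDAd-0 from PBS was 0.28 ± 0.13 (SE; limma adjusted p = 0.397). The other membrane-anchored genes Mmp16, Mmp17 and Mmp24 differed by between -0.06 and 0.14 in all 3 comparisons, and Mmp23 by between -0.08 and 0.01.

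Mmp3, stromelysin 1, cuts proteoglycans and activates other precursors. It read 12.85, 12.81 and 12.69 in PBS, 12.65, 13.26 and 12.50 in HDAd-0, and 12.65, 12.68 and 12.67 in HDAd-gE3. The HDAd-0 arrays spanned both other groups, and the difference of HDAd-gE3 from PBS was -0.12 ± 0.17 (SE; limma adjusted p = 0.81). Mmp12, the macrophage elastase, read 13.11, 13.13 and 13.11 in PBS, 13.16, 13.18 and 13.25 in HDAd-0, and 13.12, 13.15 and 13.15 in HDAd-gE3. HDAd-0 lay wholly above both other groups, yet by only 0.08 ± 0.052 over PBS (limma adjusted p = 0.535), and HDAd-gE3 differed from HDAd-0 by -0.06 ± 0.052 (adjusted p = 0.635). The 95% interval of the latter was -0.18 to 0.06, and that of HDAd-0 against PBS was -0.035 to 0.2.

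Mmp19, a basement membrane protease, read 11.72, 11.88 and 11.81 in PBS, 11.39, 11.36 and 11.69 in HDAd-0, and 11.57, 11.91 and 11.54 in HDAd-gE3. No HDAd-0 array reached the lowest PBS array, and the difference was -0.33 ± 0.12 (SE; limma adjusted p = 0.326). Mmp1a, Mmp1b, Mmp7 and Mmp20 were dim, with means over all arrays of 2.90, 3.04, 4.12 and 2.81 beside a median gene of 8.58. Their differences, like those of Mmp10 and Mmp11 (between -0.11 and 0.10), had no unadjusted p under 0.05.

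**Figure D2:**
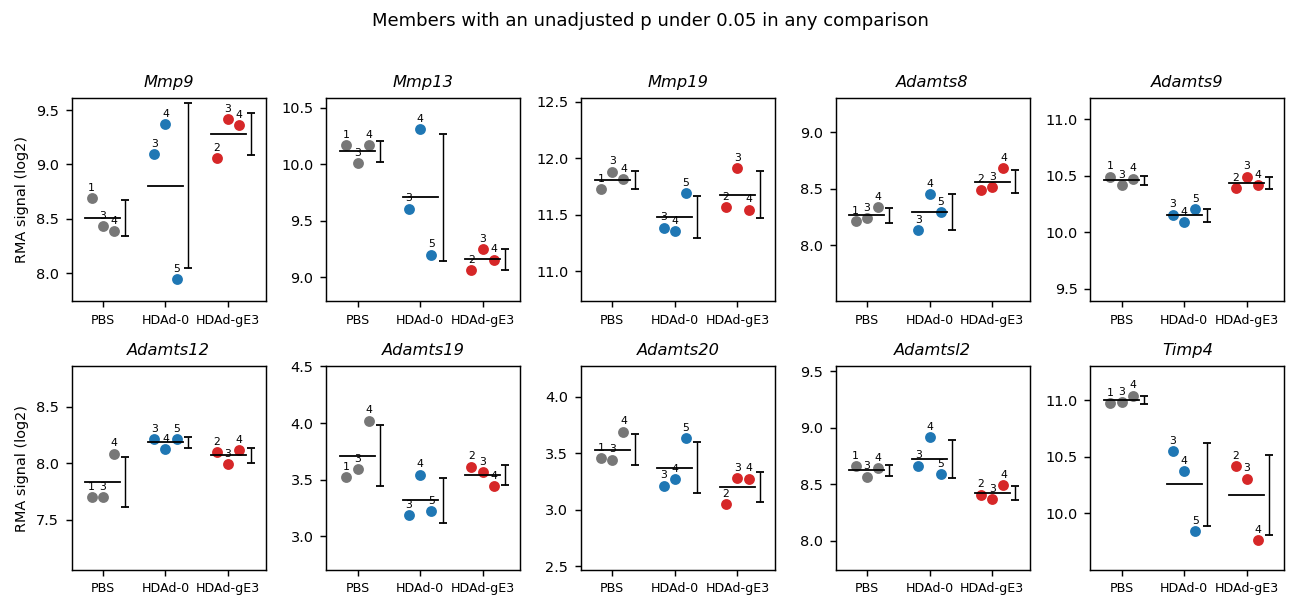
Log2 signal (y axis) on each array of the 10 genes with an unadjusted limma p under 0.05 in at least 1 comparison, by group (x axis); digits are replicate numbers, the line is the group mean and the bar its SD. The HDAd-gE3 arrays of Mmp13 sit between 9.07 and 9.25, below the PBS arrays at 10.01 to 10.17, and the HDAd-0 arrays spread over both.

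Among the inhibitors, Timp4 stood apart from the other three. Timp4, which is most abundant in heart, adipose tissue and vessels, read 10.98, 10.98 and 11.04 in PBS, 10.55, 10.37 and 9.84 in HDAd-0, and 10.42, 10.31 and 9.76 in HDAd-gE3. All 6 vector arrays lay below all 3 PBS arrays, and HDAd-0 and HDAd-gE3 overlapped. The mean was 11.00 ± 0.037 (SD, n = 3) in PBS, 10.26 ± 0.37 in HDAd-0 and 10.16 ± 0.35 in HDAd-gE3. The difference from PBS was -0.74 ± 0.21 (SE) with HDAd-0, 1.68-fold lower (limma adjusted p = 0.221), and -0.84 ± 0.21 with HDAd-gE3, 1.79-fold lower (adjusted p = 0.172). Between the vectors it was -0.09 ± 0.21 (95% interval -0.57 to 0.38). The lowest arrays were HDAd-0 replicate 5 and HDAd-gE3 replicate 4, and without both the differences from PBS were -0.54 and -0.64. With arrays weighted by their quality the HDAd-gE3 difference was -0.76 with a limma adjusted p of 0.0379, a fit that called 804 genes. The second Timp4 probe set differed from PBS by -0.58 with HDAd-0 and by -0.45 with HDAd-gE3.

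Cardiac markers moved with Timp4 in part. The 6 markers averaged 13.26 to 13.33 in PBS, 12.21 to 12.93 in HDAd-0 and 12.76 to 13.65 in HDAd-gE3. All 6 were lower in HDAd-0 than in PBS at an unadjusted p under 0.05, and none of the 6 was in HDAd-gE3 against PBS, where 2 had a higher and 4 a lower mean. By array they averaged 13.33, 13.29 and 13.26 in PBS, 12.27, 12.21 and 12.93 in HDAd-0, and 13.65, 13.29 and 12.76 in HDAd-gE3. Within HDAd-gE3 the cardiac average ranked the arrays as Timp4 did, and replicate 4 was lowest in both. Within HDAd-0, replicate 5 was highest in the cardiac average and lowest in Timp4. HDAd-gE3 replicate 2 had the highest cardiac average of all arrays and a Timp4 signal of 10.42, below every PBS array. The 4 measured adipose markers averaged 12.40 to 12.74, 12.50 to 12.76 and 12.63 to 12.82 in PBS, HDAd-0 and HDAd-gE3, and all 4 had a higher mean in both vector groups than in PBS. The part of heart muscle in the Timp4 difference was not tested.

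The brightest probe sets of the other inhibitors varied little. Timp1, the inducible inhibitor, read 13.21, 13.17 and 13.11 in PBS, 13.05, 13.22 and 13.12 in HDAd-0, and 13.06, 13.14 and 13.15 in HDAd-gE3. Timp2, which also takes part in the activation of Mmp2, read 13.25, 13.26 and 13.24 in PBS, 13.23, 13.38 and 13.28 in HDAd-0, and 13.26, 13.30 and 13.33 in HDAd-gE3. Timp3, which binds to matrix and also inhibits ADAMTS enzymes, read 12.85, 12.90 and 12.93 in PBS, 12.86, 12.92 and 12.90 in HDAd-0, and 12.87, 12.92 and 12.94 in HDAd-gE3. At these probe sets the groups overlapped in every comparison. The 95% intervals of the difference between HDAd-gE3 and HDAd-0 were -0.16 to 0.14 for Timp1, -0.13 to 0.13 for Timp2 and -0.11 to 0.14 for Timp3. These intervals hold for the brightest probe sets only. The second Timp2 probe set, of nearly the same brightness, read 13.21, 13.24 and 13.24 in PBS and 13.08, 13.10 and 13.08 in HDAd-gE3, which lay wholly below PBS, by -0.14 ± 0.057 (SE). The 2 dimmest Timp3 probe sets were higher in mean in HDAd-gE3 than in HDAd-0 by 0.22 ± 0.084 and 0.20 ± 0.10. The mean of a gene's probe sets gave 0.20 ± 0.086 for Timp2 (limma adjusted p = 0.361) and 0.13 ± 0.066 for Timp3 (adjusted p = 0.425) in that comparison.

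**Figure D3:**
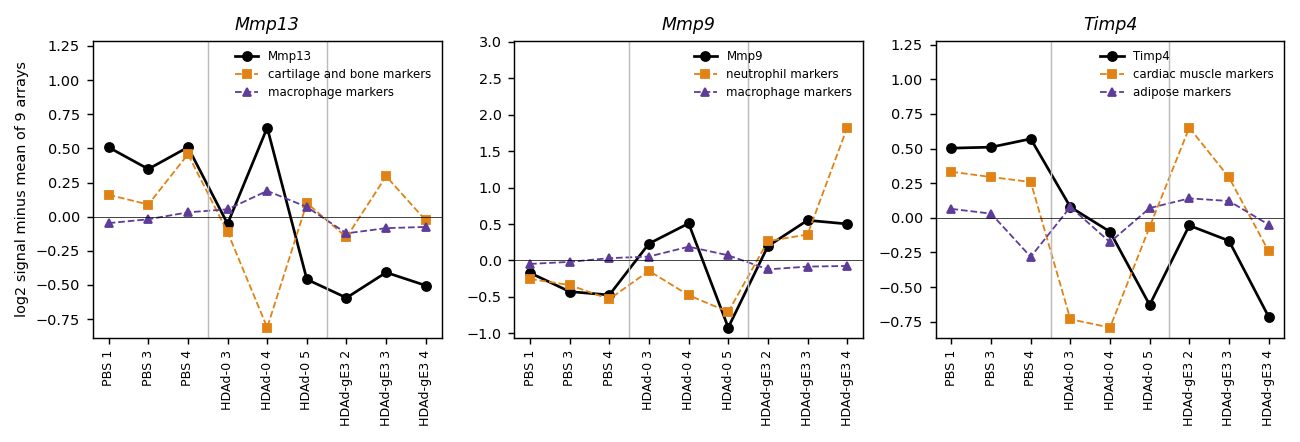
Deviation of each array from the mean of all 9 arrays (y axis, log2) for Mmp13, Mmp9 and Timp4 and for the averages of markers of cell types that make them, by array (x axis). Mmp9 and the neutrophil average both lie high in HDAd-gE3, and Timp4 lies high on the 3 PBS arrays. Mmp9 also lies high on HDAd-0 replicates 3 and 4, where the neutrophil average lies below that of every HDAd-gE3 array. The cartilage and bone average ranks the arrays as Mmp13 does within HDAd-gE3 and in reverse within HDAd-0.

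The ADAMTS proteoglycanases cut versican, the main large proteoglycan of the artery wall, or aggrecan. Adamts9, a versican-cutting member, had the smallest limma adjusted p of the family. It read 10.49, 10.42 and 10.47 in PBS, 10.16, 10.09 and 10.21 in HDAd-0, and 10.39, 10.49 and 10.41 in HDAd-gE3. HDAd-0 lay wholly below both other groups, with means of 10.15 ± 0.059 (SD, n = 3) against 10.46 ± 0.04 in PBS and 10.43 ± 0.052 in HDAd-gE3. HDAd-0 differed from PBS by -0.31 ± 0.058 (SE; limma adjusted p = 0.127), and HDAd-gE3 differed from HDAd-0 by 0.28 ± 0.058 (adjusted p = 0.196). HDAd-gE3 and PBS differed by -0.03, with a 95% interval of -0.16 to 0.11. The mean of the 3 Adamts9 probe sets gave -0.06 for HDAd-0 against PBS, since a second, dimmer probe set differed by 0.22 ± 0.29.

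Adamts8, a proteoglycanase that also inhibits endothelial growth, read 8.21, 8.24 and 8.34 in PBS, 8.13, 8.45 and 8.29 in HDAd-0, and 8.49, 8.51 and 8.68 in HDAd-gE3. HDAd-gE3 lay wholly above both other groups, which overlapped with each other. It exceeded HDAd-0 by 0.27 ± 0.092 (SE; limma adjusted p = 0.314) and PBS by 0.30 ± 0.092 (adjusted p = 0.247). With arrays weighted by their quality the latter was 0.28 with a limma adjusted p of 0.0496, a fit that called 804 genes.

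Adamts4, an aggrecan- and versican-cutting enzyme found in lesions, read 10.18, 10.18 and 10.26 in PBS, 9.81, 9.88 and 9.97 in HDAd-0, and 9.73, 10.41 and 10.03 in HDAd-gE3. HDAd-0 lay below PBS on all arrays, by -0.32 ± 0.15 (SE; limma adjusted p = 0.406), and HDAd-gE3 spanned both. The second Adamts4 probe set differed by -0.46 in the same comparison. Adamts1, which cuts versican, read 10.83, 10.80 and 11.28 in PBS, 11.07, 11.66 and 11.07 in HDAd-0, and 11.33, 11.06 and 11.44 in HDAd-gE3. Its groups overlapped, and its means in HDAd-0 and HDAd-gE3 exceeded that in PBS by 0.30 ± 0.19 and 0.31 ± 0.19 (limma adjusted p = 0.55 and 0.519). Adamts5, the main aggrecan-cutting enzyme of mouse cartilage, read 10.70, 10.88 and 10.79 in PBS, 10.94, 11.06 and 10.86 in HDAd-0, and 10.77, 10.97 and 10.93 in HDAd-gE3. HDAd-0 exceeded PBS by 0.16 ± 0.083 (adjusted p = 0.445), and the other 3 probe sets of Adamts5 by 0.35, 0.21 and 0.48. Adamts15, also a proteoglycanase, differed by between -0.13 and 0.11 in the 3 comparisons.

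**Figure D4:**
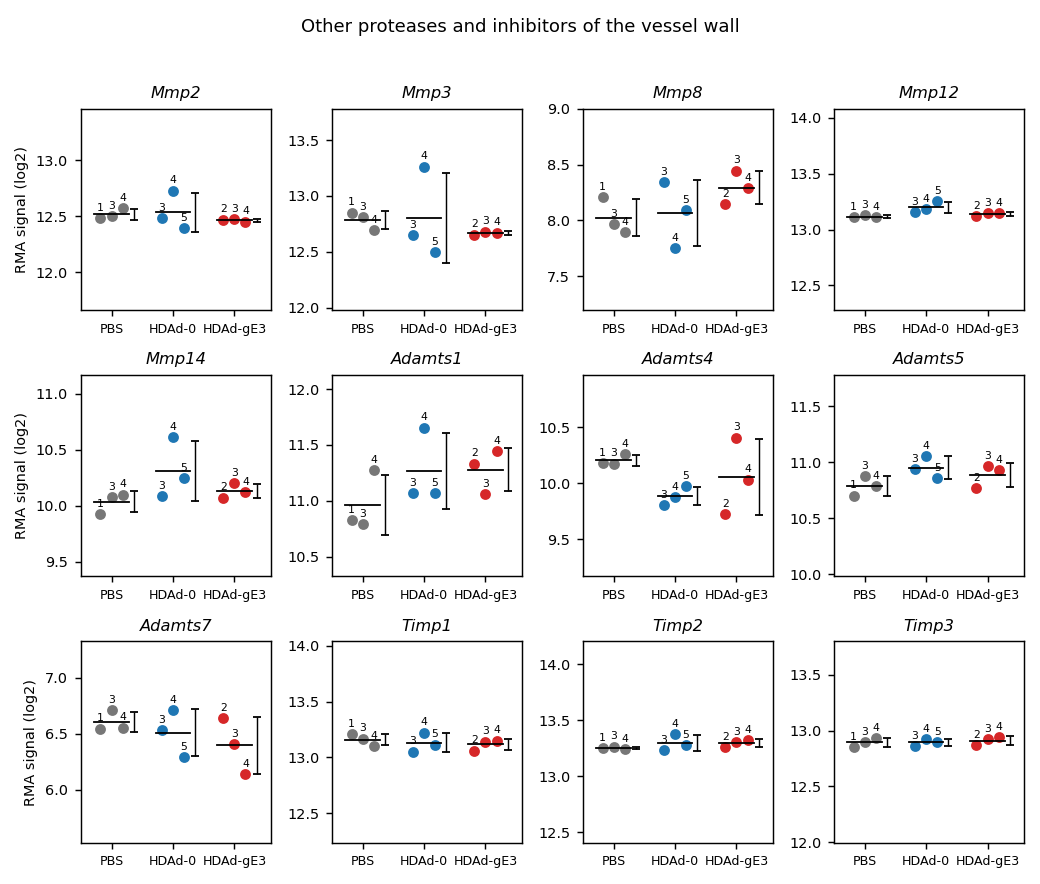
Log2 signal (y axis) on each array, by group (x axis), of Mmp2, Mmp3, Mmp8, Mmp12, Mmp14, Adamts1, Adamts4, Adamts5, Adamts7 and Timp1 to Timp3; digits are replicate numbers, the line is the group mean and the bar its SD. Adamts4 in HDAd-0 lies between 9.81 and 9.97, below PBS at 10.18 to 10.26, and HDAd-0 replicate 4 is the highest array of Mmp2, Mmp3, Mmp14 and Adamts1.

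Adamts7 and Adamts12 cut cartilage oligomeric matrix protein, which smooth muscle cells also make. Adamts7 read 6.54, 6.71 and 6.55 in PBS, 6.53, 6.71 and 6.29 in HDAd-0, and 6.64, 6.41 and 6.14 in HDAd-gE3. Its groups overlapped, and HDAd-gE3 differed from PBS by -0.21 ± 0.14 (SE; limma adjusted p = 0.569). Adamts12 read 7.70, 7.70 and 8.09 in PBS, 8.21, 8.13 and 8.21 in HDAd-0, and 8.10, 8.00 and 8.12 in HDAd-gE3. HDAd-0 lay wholly above both other groups, by 0.35 ± 0.10 over PBS (limma adjusted p = 0.236), and HDAd-gE3 exceeded PBS by 0.24 ± 0.10 (adjusted p = 0.377) with overlap at PBS replicate 4. Adamts20, a versican-cutting enzyme known from pigment cell migration, and Adamts19 were near the lowest signals of the arrays. Adamts20 read 3.46, 3.44 and 3.69 in PBS, 3.21, 3.27 and 3.63 in HDAd-0, and 3.05, 3.28 and 3.28 in HDAd-gE3, which lay below PBS by -0.33 ± 0.13 (limma adjusted p = 0.323). Adamts19 read 3.52, 3.59 and 4.02 in PBS, 3.18, 3.54 and 3.22 in HDAd-0, and 3.61, 3.57 and 3.44 in HDAd-gE3, with overlapping groups and a difference of -0.40 ± 0.14 between HDAd-0 and PBS (limma adjusted p = 0.315). Signals this low say little about RNA level. Adamts3, Adamts6, Adamts10, Adamts16 and Adamts18 differed by between -0.22 and 0.25 over the 3 comparisons, none with an unadjusted p under 0.05.

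Adamtsl2, which binds fibrillin-rich microfibrils and a carrier of transforming growth factor beta, read 8.66, 8.57 and 8.64 in PBS, 8.67, 8.92 and 8.59 in HDAd-0, and 8.41, 8.37 and 8.49 in HDAd-gE3. HDAd-gE3 lay wholly below both other groups. It differed from HDAd-0 by -0.30 ± 0.088 (SE; limma adjusted p = 0.265) and from PBS by -0.20 ± 0.088 (adjusted p = 0.379). The first of these was -0.15 when the 3′ less 5′ control difference was a covariate. The other 4 Adamtsl genes differed by between -0.17 and 0.18 in all 3 comparisons, and Adamtsl4 in HDAd-0 ranged from 8.68 to 9.44, the high value again in replicate 4.

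Of the 42 genes 21 had several single-gene probe sets, 78 probe sets over all 42. In each of the 3 comparisons all probe sets of 14 of these 21 genes had differences of one sign. No other probe set of these genes passed when all 34945 single-gene probe sets were tested with limma. The widest range between probe sets of a gene was that of Adamts6 in both comparisons with HDAd-0, and that of Adamts9 in HDAd-gE3 against PBS. For Adamts6 the second probe set gave 0.69 for HDAd-gE3 against HDAd-0 and the brightest -0.09. Timp2 had 6 probe sets, and its 2 dimmest gave 0.51 and 0.60 in that comparison while the brightest gave 0.001. For Mmp14 the third probe set gave 0.44 for HDAd-gE3 against PBS and the brightest 0.10. Which transcript each of these probe sets reads was not tested.

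**Figure D5:**
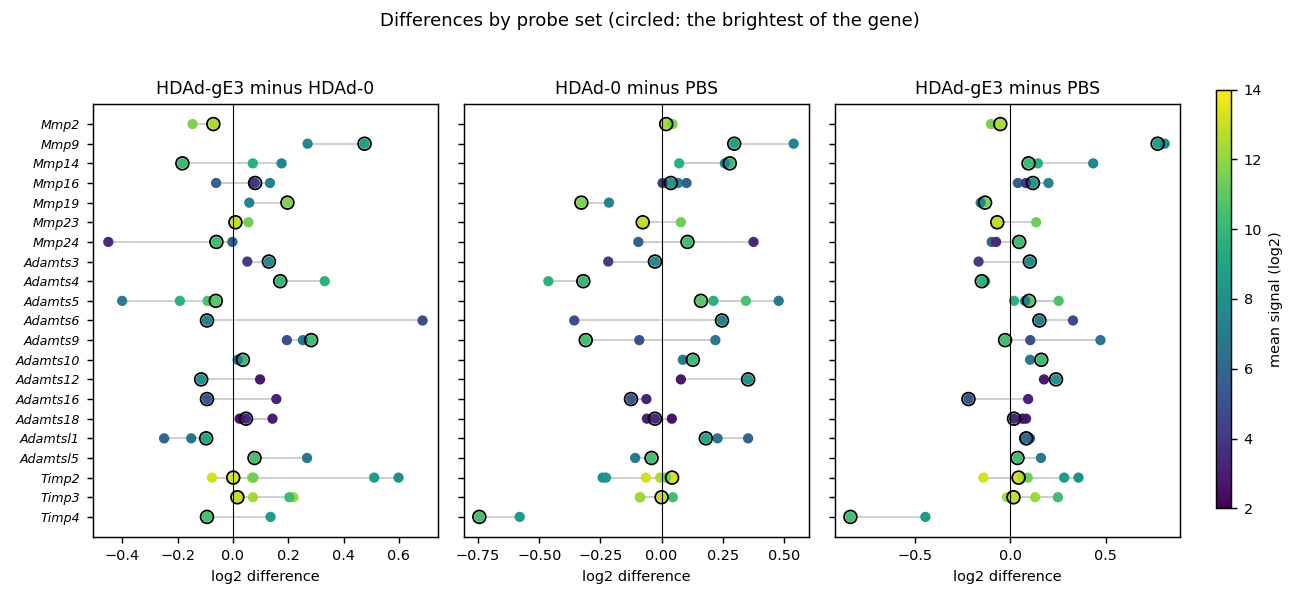
Log2 difference (x axis) at each single-gene probe set of the 21 genes that have several (y axis), in the 3 comparisons; the colour gives the mean log2 signal and a ring marks the brightest probe set of a gene. In HDAd-0 against PBS the probe sets of Mmp9 and of Timp4 each lie on one side of 0, whereas those of Adamts6 and Adamts9 lie on both sides.

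Genes that act with the family were examined as fixed lists, each with 18 of 20 genes measured and none past the adjusted limma threshold. Of the genes for activation and clearance, 1 of 18 was higher and 4 were lower in HDAd-gE3 than in HDAd-0 at an unadjusted p under 0.05, where 3.46% and 9.4% of all genes were. Bsg, the membrane protein that induces metalloproteinases, differed by 0.22. Plg encodes plasminogen, the precursor of plasmin, which activates metalloproteinases. It differed by -0.44, and A2m, a plasma inhibitor that traps proteases, by -0.70. Adam10, a membrane shedding protease, differed by -0.19, and Tfpi2, a plasmin inhibitor, by -0.25. In HDAd-0 against PBS Plg and A2m were higher at that threshold, by 0.66 and 1.05, and none was lower. In that comparison 8.5% of all genes were higher and 4.39% lower. Plg and A2m are mainly liver products, and liver markers averaged 7.69 to 8.07 in PBS, 8.49 to 9.94 in HDAd-0 and 7.97 to 8.87 in HDAd-gE3; their part in these differences was not tested.

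Among substrates in the wall, Acan (aggrecan) differed by 0.49 and Vwf, an adhesive protein, by -0.38 in HDAd-gE3 against HDAd-0. The enzyme that cuts Vwf, Adamts13, is not among the genes described here. Vwf differed by 0.41 in HDAd-0 against PBS. Vwf is made by endothelium, whose 8 markers averaged 9.99 to 10.09 in PBS, 10.36 to 10.62 in HDAd-0 and 10.13 to 10.32 in HDAd-gE3. All 8 were higher in mean in HDAd-0 than in PBS, 6 at an unadjusted p under 0.05 and 2 past the adjusted threshold (Tie1 and Esam), and 7 of 8 were lower in mean in HDAd-gE3 than in HDAd-0; their part in the Vwf difference was not tested. In HDAd-gE3 against PBS, Thbs2, a matricellular protein, differed by 0.18 and Comp by -0.41. No other gene of the list had an unadjusted p under 0.05, and the list median lay between 0.02 and 0.03. Acan and Comp are also among the 8 cartilage and bone markers described with Mmp13. Of these 8, 6 had a higher and 2 a lower mean in HDAd-gE3 than in HDAd-0. Against PBS, 3 had a higher and 5 a lower mean in HDAd-gE3. The part of cartilage in the Acan and Comp differences was not tested. Of the genes that induce Mmp transcription, 14 of 18 had a lower mean in HDAd-gE3 than in HDAd-0 and 14 of 18 a higher mean in HDAd-0 than in PBS, beside 61.7% and 57.6% of all genes. At an unadjusted p under 0.05, Il1a and Fos, an AP-1 subunit, differed by -0.19 and -0.16 in the first of these comparisons. Il1b, Fos and Junb were higher by 0.43, 0.23 and 0.32 in the second. In HDAd-gE3 against PBS, Il1b and Fosb were higher by 0.41 and 0.35, and Osm, a cytokine of the interleukin-6 family, differed by -0.27. At that threshold 3.46% of all genes were higher and 9.4% lower in HDAd-gE3 than in HDAd-0. The shares were 8.5% and 4.39% in HDAd-0 against PBS, and 5.94% and 7.27% in HDAd-gE3 against PBS. With 18 genes per list, these few substrates and inducers were not read as a result about either list.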

How the data were processed

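RNA from pools of 3 aortas was measured on 9 Affymetrix mouse arrays. The authors deposited 45101 log2 signals per array. These come from RMA, per the submitters' processing notes, whose version was not given in the sources used here. RMA equalises the distributions of the arrays, which hides any change common to most genes. The log2 scale was read from the range of the values.

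The platform annotation gave 1 gene for 34945 probe sets. Each of the resulting 18193 genes was read at its brightest probe set, and limma 3.58.1 (R 4.3.3; lmFit, eBayes) was fitted over all 9 arrays, leaving 6 residual degrees of freedom, with no covariate and no filter. P-values were adjusted by the Benjamini-Hochberg method over all genes. Each p-value sets a group difference against the spread between pools of a group, which eBayes moderates over all genes. The procedure was checked on simulated data. Figures were drawn with matplotlib 3.10.9.

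Values of every array are printed for members with an unadjusted p under 0.05 in any comparison and for a fixed set with known roles in the vessel wall; other members are given by ranges and may be named. The members, lists and alternatives were chosen with earlier results of these data known.

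Replicate numbers come from the labels. Alternatives were other scalings, probe-set choices, a filter on dim genes, a replicate block, only the groups compared, array weights, an intensity trend, a threshold of 0.1, the 3′ less 5′ control difference as covariate, leaving out each array, and leaving out HDAd-gE3 replicate 4 with HDAd-0 replicate 5. Running numbers in the sample titles do not interleave between groups; what they mark is not stated, and if they give an order of processing, it cannot be told apart from group.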

Additional observations from a re-analysis of the deposited data

How the results depend on the processing

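No gene of the family passed the adjusted limma threshold in HDAd-gE3 against HDAd-0 or in HDAd-0 against PBS under any of the 21 alternatives. In HDAd-gE3 against PBS, where none passed, 1 gene (Mmp13) did with only the 2 groups in the fit, which called 13 genes in all. With array weights 3 did (Mmp13, Timp4 and Adamts8), of 804 genes called in all. When each array was left out in turn 0 to 1 did. The 1 was Mmp13 without HDAd-0 replicate 4, where 16 genes were called in all. For HDAd-gE3 against HDAd-0 the 4 genes with an unadjusted p under 0.05 became 7 once both HDAd-0 replicate 5 and HDAd-gE3 replicate 4 were left out, and 2 to 7 without 1 array: 7 without HDAd-0 replicate 4 or 5 and 2 without HDAd-gE3 replicate 4. In HDAd-0 against PBS the count of 5 was 8 with an intensity trend, and 4 to 8 without 1 array, with 8 without HDAd-0 replicate 5. Shares of all genes at that unadjusted threshold were not computed for the alternatives, so these counts were not read as a result about the family. The median difference of the family stayed small and changed sign: with the control signal as covariate it was 0.0566 against HDAd-0 and 0.0627 against PBS, and it was -0.0606 against HDAd-0 with the same pair of arrays left out, and -0.0483 to 0.0326 without 1 array, the highest without HDAd-0 replicate 4. For HDAd-0 against PBS it ran from -0.044 to 0.0487 without 1 array, the lowest without HDAd-0 replicate 4. The cause of these shifts was not tested.

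With the replicate number as a block, the counts of genes with an unadjusted p under 0.05 were 7 for HDAd-gE3 against HDAd-0 and 10 in HDAd-0 against PBS, and no gene of the family passed the adjusted threshold. Under the block Mmp9 differed by 0.82 between HDAd-0 and PBS (limma adjusted p = 0.404), beside 0.30 without it. Only 3 and 4 are common to all groups, and deviations of same-numbered arrays from their group means correlated at between -0.046 and 0.1. The labels do not say whether same-numbered arrays belong together, and low correlations over 3 arrays per group cannot decide it.

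Over 22 named genes, 1368 single differences were recomputed. Those without an unadjusted limma p under 0.05 in the main fit were checked for size, and 26 moved by at least the gene's residual SD. Those with such a p were checked only for sign and the adjusted threshold: 5 newly passed and 0 reversed. The remaining 1337 showed none of these changes, but the second kind could still move further than that SD. Mmp13 in HDAd-gE3 against HDAd-0 did so, from -0.55 to -0.095 with the control covariate. Adamts9 in HDAd-0 against PBS did so, from -0.31 to -0.06 with the mean of its probe sets. The filter on dim genes gave no value for the genes below the median gene. Dim genes and 3 arrays per group limit what could be detected.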
